A study of Homo sapiens with 6 samples.

Results

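Integrin subunit genes were described in Mum-2b, a human cell line labelled as uveal melanoma, with NELFCD knocked down and in its control. NELFCD belongs to the NELF complex, which makes RNA polymerase II pause just downstream of promoters. The 10 members were the rows of the count table named ITGAV, ITGA2, ITGA3, ITGA5, ITGA6, ITGB1, ITGB3, ITGB4, ITGB5 and ITGB8, out of 58735 genes in the table. All 10 passed the filter on low counts, which left 14844 genes for testing. The knockdown group was 3 libraries of genotype NELFCD_knockdown, titled shRNA1 and numbered 1 to 3. The control group was 3 libraries of genotype WT, titled NC and numbered 1 to 3. Both groups share the cell line, and the titles name only 1 hairpin. Whether the control cells carried a hairpin of their own is not given in the sources used here. The labels do not say whether the libraries came from separate cultures, so p-values measure the spread between these libraries, which may be technical.

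Integrins are receptors made of an alpha and a beta chain that tie the extracellular matrix to the actin cytoskeleton. The alpha chain largely sets which matrix protein is bound, and the short tail of most beta chains recruits talin and kindlin. ITGB1 encodes the beta chain shared by most receptors for collagen, laminin and fibronectin. ITGAV pairs with several beta chains, ITGB3, ITGB5 and ITGB8 among them, in receptors for vitronectin, fibronectin and latent TGF-beta. ITGB4 pairs with ITGA6 in hemidesmosomes, which anchor to intermediate filaments. In melanoma, integrins are known for roles in invasion and survival.

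With the replicate number as a block in the model, ITGB5, ITGA2, ITGA5 and ITGB4 were lower in the knockdown at an adjusted p under 0.05, and the other 6 members did not pass. In the same fit 8.01% of all tested genes were lower and 5.48% higher. For ITGB4 most counts came from the libraries numbered 1, and pair 3 showed no difference. ITGB5 was the only member whose knockdown and control libraries did not overlap, against 7.34% of all genes with the knockdown below and 7.63% with it above, so this count of 1 in 10 is near the background. ITGB5 was left at 44.3%, 67.5% and 62.8% of its control level in replicate pairs 1, 2 and 3. The subunits ITGB1, ITGA3 and ITGAV had blocked log2 fold changes of -0.08, -0.10 and 0.09. Without the replicate number edgeR called 0 of the 10 members and 0% of all genes, and ITGB5 alone had an unadjusted p under 0.05 (0.0347).

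The promoters of the called members are shown because NELF acts next to the transcription start. RefSeq (GRCh38.p14) start windows were matched by symbol for 7 of the 10 members, and ITGA3, ITGB3 and ITGB4 were not matched. The 250 bases before the RefSeq start are printed 5′ to 3′ on the strand of the gene for the 3 called members that have a window. They lie at chr3:124887366-124887615 (minus strand) for ITGB5, chr5:52989102-52989351 (plus strand) for ITGA2 and chr12:54419267-54419516 (minus strand) for ITGA5. The RefSeq start lay 68, 26 and 194 bases from the nearest principal transcript start of GENCODE 29 for ITGB5, ITGA2 and ITGA5. In the count table these genes begin, on their own strand, at 124901418, 52989326 and 54419460. All of the printed run for ITGB5, and part of it for ITGA2 and ITGA5, thus lies within the gene there.
ITGB5: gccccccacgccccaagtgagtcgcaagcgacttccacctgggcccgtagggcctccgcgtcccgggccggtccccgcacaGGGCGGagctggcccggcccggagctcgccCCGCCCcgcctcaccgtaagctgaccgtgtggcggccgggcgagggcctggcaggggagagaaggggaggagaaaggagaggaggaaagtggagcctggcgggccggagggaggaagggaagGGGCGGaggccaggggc
ITGA2: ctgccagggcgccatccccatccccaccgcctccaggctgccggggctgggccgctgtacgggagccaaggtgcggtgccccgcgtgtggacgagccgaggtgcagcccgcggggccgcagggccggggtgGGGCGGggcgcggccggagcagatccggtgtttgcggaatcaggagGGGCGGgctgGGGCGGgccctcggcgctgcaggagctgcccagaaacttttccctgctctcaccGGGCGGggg
ITGA5: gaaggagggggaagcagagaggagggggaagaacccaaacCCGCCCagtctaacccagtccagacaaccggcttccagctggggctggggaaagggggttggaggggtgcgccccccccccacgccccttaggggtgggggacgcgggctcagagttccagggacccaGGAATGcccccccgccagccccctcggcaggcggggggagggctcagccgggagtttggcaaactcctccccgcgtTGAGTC
Capitals mark matches on either strand to a GC box (GGGCGG), an AP-1 element (TGANTCA) or a TEAD element (GGAATG). The GC box occurred 3 times in the ITGB5 window, 4 times in the ITGA2 window and 1 time in the ITGA5 window, and in 45.0% of all 35116 RefSeq windows of 300 bases. Counted from the RefSeq start, the ITGA5 window also held a TEAD match from -82 and an AP-1 match from -6. The last letter of the AP-1 match is the RefSeq start base and lies past the printed run. These TEAD and AP-1 matches lie inside the ITGA5 gene as the count table places it. TEAD matches occurred in 14.0% and AP-1 matches in 7.71% of all windows. Neither was found in the ITGB5 or ITGA2 window. The TATA box TATAAA was not found in any of the 7 member windows, against 11.5% of all windows. The E-box CACGTG (7.26% of all windows) was likewise not found, nor were the NF-kB letters GGGANTTCC (1.85% of all windows). The matches share no letters with one another in these 3 windows. GC content over the 300 bases was 75.7% for ITGB5, 72.7% for ITGA2 and 69.3% for ITGA5, with a median of 58.7% over all windows. It was 78.3%, 72.0%, 71.7% and 70.7% for ITGB1, ITGA6, ITGB8 and ITGAV, which were not called. Their windows held 3, 3, 2 and 0 GC boxes, and that of ITGB1 also held a TEAD match. These features were thus not particular to the called members.

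The targeted gene and the replicates set the frame for the members. NELFCD was at 20.6, 37.4 and 40.2 CPM (counts scaled to a common library size) in knockdown libraries 1 to 3, against 65.3, 88.2 and 83.4 CPM in control libraries 1 to 3, so 31.5%, 42.4% and 48.2% was left by pair. Total counts were 14600333 to 16656630 in the knockdown and 14306733 to 16106948 in the control. NELFCD fell, with a blocked log2 fold change of -1.30 ± 0.109 (SE, edgeR adjusted p = 0.00046), and without the block the adjusted p was 0.532. Replicate 1 of both groups stood apart from replicates 2 and 3, with 61.8% of all tested genes differing between them in edgeR. Of 7 pigment cell markers that could check the label, TYR was at 0 to 0.0605 CPM in the knockdown and at 0 in the control, and all 7 summed to 7.59 to 18.2 CPM in the knockdown and 7.49 to 10.7 CPM in the control. Of 6 epithelial markers, the keratin genes KRT8 and KRT18 averaged 816 and 498 CPM in the knockdown and 728 and 364 CPM in the control, and CLDN4 averaged 19.2 CPM in the knockdown and 50.4 CPM in the control. KRT18 rose (0.49, edgeR adjusted p = 0.00929) and CLDN4 fell (-1.40, edgeR adjusted p = 0.000149), KRT8 did not pass (0.21, adjusted p = 0.172), and CDH1, EPCAM and KRT19 were under 1 CPM in all 6 libraries. The part of these markers in the members' results was not tested. TYRP1 had the highest level of the pigment markers, at 3.01 to 9.14 CPM in the knockdown and 3.25 to 4.78 CPM in the control, so the defining markers were at or near 0 apart from a few CPM.

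Levels between genes were compared on the authors' deposited FPKM, which divides by gene length. ITGB1 had 118, 127 and 121 FPKM in knockdown libraries 1 to 3, against 149, 124 and 122 FPKM in control libraries 1 to 3. ITGA3, whose product pairs with that of ITGB1 as a laminin receptor, had 121, 98.1 and 100.2 FPKM in the knockdown, against 139, 102 and 108 FPKM in the control. These were the leading beta and alpha subunits in every library, and ITGB1 was above ITGA3 in 5 of 6 libraries, all but knockdown replicate 1. ITGB1 made up 88.3% ± 2.74 of the FPKM summed over the 5 beta members in the knockdown and 82.5% ± 5.07 in the control (SD, n = 3 each, exact two-sided permutation p = 0.2). ITGA3 made up 50.1% ± 3.47 of the 5 alpha members in the knockdown and 51.0% ± 0.964 in the control (SD, n = 3 each, exact two-sided permutation p = 0.8). The 5 beta members summed to 139, 141 and 135 FPKM in the knockdown, against 194, 144 and 143 FPKM in the control (exact two-sided permutation p = 0.1). These groups did not overlap, but only by the step from 141 to 143 FPKM, and ITGB1 by itself overlapped. The 5 alpha members summed to 223, 205 and 208 FPKM in the knockdown, against 269, 203 and 210.1 FPKM in the control, and overlapped (exact two-sided permutation p = 0.7). The ratio of the alpha to the beta sum was 1.53 ± 0.08 in the knockdown and 1.42 ± 0.0458 in the control (SD, n = 3 each). It overlapped too (exact two-sided permutation p = 0.2). A design of 3 against 3 cannot give a p below 0.1 in this test.

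By mean FPKM over the 6 libraries, ITGB1 (127) and ITGA3 (111) were followed by ITGA6 (54.4), ITGA5 (24.5), ITGB5 (18.9), ITGA2 (15.1), ITGAV (14.4), ITGB3 (3.10), ITGB4 (0.423) and ITGB8 (0.156). The steps from ITGA3 to ITGA6, from ITGAV to ITGB3 and from ITGB3 to ITGB4 held in 6 of 6 libraries. The ITGB3 level is uncertain, because 51.6% of its exon length is shared with another gene on the same strand. ITGA6 was above ITGA5 in 5 of 6 libraries, and control replicate 1 had the opposite order. ITGA2 was above ITGAV, and ITGB4 above ITGB8, in 2 of 6 libraries, the 2 numbered 1, and below it in the other 4, so the order of these neighbours turned with the replicate. ITGB4 had 0.566 FPKM in knockdown replicate 1 and 1.72 FPKM in control replicate 1, where ITGB8 had 0.0211 and 0.0488 FPKM. ITGA5 lay above ITGB5 in all 3 knockdown libraries and in control replicate 1, while in control replicates 2 and 3 the values were 18.0 and 18.1 FPKM for ITGA5 and 18.0 and 19.3 FPKM for ITGB5.

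**Figure D1:**
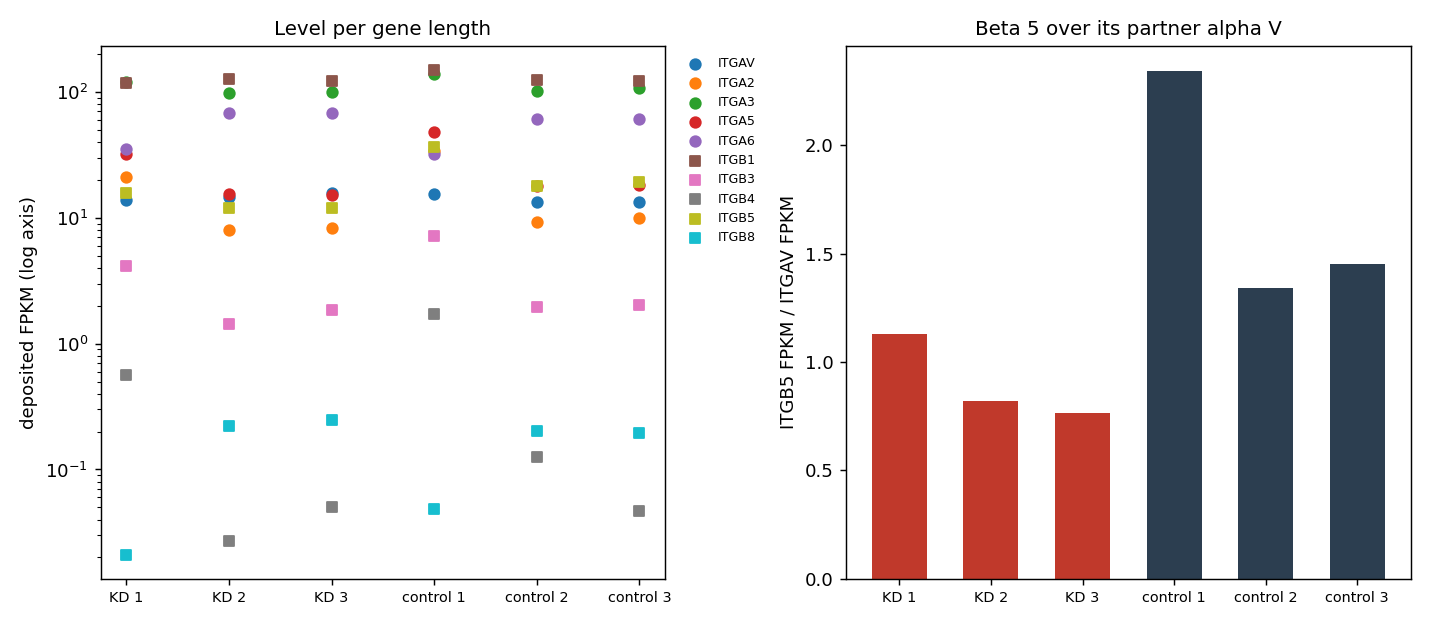
Left, deposited FPKM of the 10 integrin subunits (log axis) in the 3 knockdown (KD) and 3 control libraries, with circles for alpha and squares for beta subunits. Right, ITGB5 FPKM divided by ITGAV FPKM, where the knockdown libraries lie between 0.763 and 1.13 and the control libraries between 1.34 and 2.34.

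Of the members that pair with ITGAV, ITGB5 was the only one called. ITGB5 (ENSG00000082781, hg38 chromosome 3, 124761948 to 124901418, minus strand) encodes the beta chain of the vitronectin receptor αvβ5. It had 105, 77.5 and 77.7 CPM in knockdown libraries 1 to 3, against 238, 115 and 124 CPM in control libraries 1 to 3. The highest knockdown library lay below the lowest control library. Of all tested genes, 7.34% had knockdown libraries all below the control libraries, and 7.63% had them all above. The mean was 86.8 ± 16.02 CPM in the knockdown and 159 ± 68.7 CPM in the control (SD, n = 3 each), and 3 against 3 gave the lowest p it can (0.1, exact permutation test, two-sided). edgeR's quasi-likelihood test with the replicate block gave a log2 fold change of -0.81 ± 0.109 (SE) and a Benjamini-Hochberg adjusted p of 0.00364, with all 3 pairs lower. Without the block the log2 fold change was -0.87 ± 0.323 (SE) and edgeR's adjusted p was 0.707. Over 12 fits that held the replicate number or left out replicate 1, ITGB5 was lower and past the threshold in 12. Log2 fold changes ran from -0.93 to -0.62 and adjusted p from 4.2e-32 to 0.045. The smallest came from the blocked fit without replicate 1, which rests on the spread of replicates 2 and 3 alone. These fits share libraries and are not independent. Over 15 fits with no replicate term ITGB5 was lower in 15 and past the threshold in 0, with adjusted p from 0.33 to 1.

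ITGAV (ENSG00000138448, chromosome 2, 186590065 to 186680901, plus strand), the alpha chain partner, did not follow ITGB5. It had 118, 120 and 130 CPM in the knockdown, against 130, 109 and 108 CPM in the control. Pair 1 was lower and pairs 2 and 3 were higher, and the groups overlapped. Its blocked log2 fold change was 0.09 ± 0.081 (SE, edgeR adjusted p = 0.509). In replicates 2 and 3 alone it was 0.20 (edgeR adjusted p = 0.0018), a value that rests on the spread of those 4 libraries. The ratio of ITGB5 to ITGAV in deposited FPKM was 1.13, 0.821 and 0.763 in the knockdown, against 2.34, 1.34 and 1.45 in the control. Every knockdown ratio lay below every control ratio, with means of 0.905 ± 0.197 in the knockdown and 1.71 ± 0.548 in the control (SD, n = 3 each, exact two-sided permutation p = 0.1). ITGB5 by itself did not overlap, so this separation largely restates the ITGB5 values. The ratio was also formed among several sums, shares and ratios, most of which overlapped.

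ITGB3 (ENSG00000259207, chromosome 17, 47253846 to 47311816), the beta chain of the receptor αvβ3, had 19.0, 6.35 and 8.21 CPM in the knockdown, against 31.9, 8.48 and 8.93 CPM in the control. It was lower in all 3 pairs, at 59.7%, 74.9% and 91.9% of the control, but its groups overlapped. The blocked log2 fold change of -0.47 ± 0.142 (SE) did not pass in edgeR (adjusted p = 0.0629). Over the 12 fits with the replicate number or without replicate 1 it was past the threshold in 4, with adjusted p from 0.0068 to 0.27. The predicted gene AC068234.1 shares 51.6% of the ITGB3 exon length on the same strand and held 0 counts in the 3 knockdown libraries and 2 counts in 1 control library, so how reads were divided between them is uncertain. ITGB8 (chromosome 7, 20330702 to 20415754), whose product with that of ITGAV is known to activate latent TGF-beta, was near the lower limit of these libraries. It had 5, 56 and 55 counts in the knockdown, against 11, 43 and 47 counts in the control, and its blocked log2 fold change was 0.06 ± 0.304 (SE, edgeR adjusted p = 0.909).

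**Figure D2:**
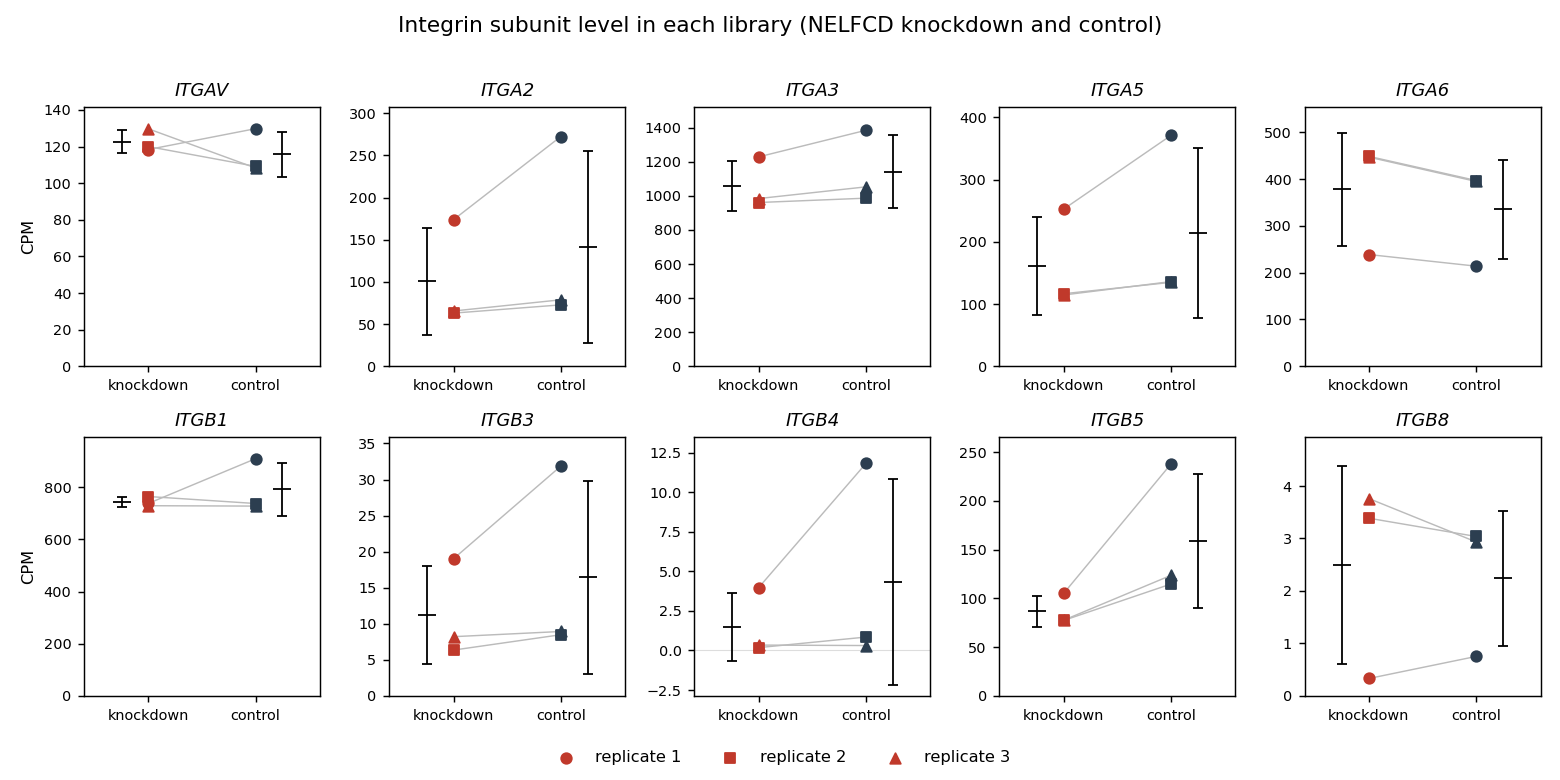
CPM of each integrin subunit in the knockdown (left, red) and control (right, dark) libraries, with grey lines joining equal replicate numbers and black bars for the mean ± SD of 3 libraries. Only ITGB5 has groups that do not overlap, and replicate 1 (circles) is the highest library of both groups for ITGA2, ITGA3, ITGA5, ITGB3, ITGB4 and ITGB5.

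ITGA5 and ITGA2, the alpha chains of the fibronectin receptor α5β1 and the collagen receptor α2β1, were lower in every pair. ITGA5 (ENSG00000161638, chromosome 12, 54395261 to 54419460, minus strand) had 253, 117 and 115 CPM in the knockdown, against 371, 135 and 136 CPM in the control. The knockdown was at 68.1%, 86.4% and 84.2% of the control in pairs 1 to 3. The groups overlapped, because knockdown replicate 1 lay above control replicates 2 and 3. The blocked log2 fold change was -0.34 ± 0.0775 (SE, edgeR adjusted p = 0.0232). ITGA2 (ENSG00000164171, chromosome 5, 52989326 to 53094779, plus strand) had 174, 63.1 and 65.6 CPM in the knockdown, against 272, 72.8 and 78.8 CPM in the control. Its groups overlapped in the same way, and the knockdown was at 63.8%, 86.6% and 83.2% of the control by pair. The blocked log2 fold change was -0.38 ± 0.09 (SE, edgeR adjusted p = 0.026). Without the block edgeR gave an adjusted p of 1 for both, and without control replicate 1 the unblocked log2 fold changes turned to 0.25 for ITGA5 and 0.41 for ITGA2. Over the 12 fits with the replicate number or without replicate 1, ITGA5 was lower in 12 and past the threshold in 10 (adjusted p from 4.6e-06 to 0.083), and ITGA2 was lower in 12 and past the threshold in 11 (adjusted p from 7.8e-06 to 0.099). The smallest for ITGA5 came from the blocked fit without replicate 1, which rests on the spread of replicates 2 and 3.

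ITGA3 and ITGA6 encode the alpha chains of laminin receptors. ITGA3 (ENSG00000005884, chromosome 17, 50055968 to 50090481) had 1229, 961 and 984 CPM in the knockdown, against 1385, 987 and 1053 CPM in the control. It was at 88.7%, 97.4% and 93.5% of the control by pair, and its blocked log2 fold change of -0.10 ± 0.0562 (SE) did not pass in edgeR (adjusted p = 0.258). ITGA6 (ENSG00000091409, chromosome 2, 172427354 to 172506282) had 239, 448 and 447 CPM in the knockdown, against 214, 397 and 395 CPM in the control. It was the only member that was higher in all 3 pairs, at 112%, 113% and 113% of the control. The blocked log2 fold change of 0.17 ± 0.0543 (SE) did not pass in edgeR (adjusted p = 0.0703), but it passed with upper-quartile scaling (0.22, adjusted p = 0.03) and in replicates 2 and 3 alone (0.18, adjusted p = 3.4e-05). Over the 12 fits with the replicate number or without replicate 1 ITGA6 was higher in 12 and past the threshold in 4 (adjusted p from 1.5e-08 to 0.44). The smallest came from the blocked fit without replicate 1, and values from replicates 2 and 3 alone rest on the spread of those libraries.

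ITGB1 (ENSG00000150093, chromosome 10, 32900319 to 33005792) had 738, 765 and 730 CPM in the knockdown, against 910, 738 and 728 CPM in the control. Control replicate 1 was the one library that stood above the others. ITGB1 was at 81.1%, 104% and 100% of the control by pair, with a blocked log2 fold change of -0.08 ± 0.0749 (SE, edgeR adjusted p = 0.509). ITGB4 (ENSG00000132470, chromosome 17, 75721328 to 75757818) had 60, 3 and 5 counts in the knockdown, against 173, 12 and 5 counts in the control. Most of its counts thus came from the 2 libraries numbered 1, and pair 3 showed no difference. In pair 3 the 95% Poisson interval, in CPM of total counts, was 0.111 to 0.798 in the knockdown and 0.101 to 0.724 in the control, and in pair 2 it was 0.0371 to 0.526 in the knockdown and 0.433 to 1.47 in the control. Its blocked log2 fold change was -1.45 ± 0.355 (SE, edgeR adjusted p = 0.03). Over 10 fits with the replicate number ITGB4 was lower in 10 and past the threshold in 7, with adjusted p from 0.00027 to 0.27, and it did not pass in DESeq2 (0.061), on log2(FPKM + 1) or without pair 2 (0.058). In replicates 2 and 3 alone it fell under the filter on low counts and was not tested.

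**Figure D3:**
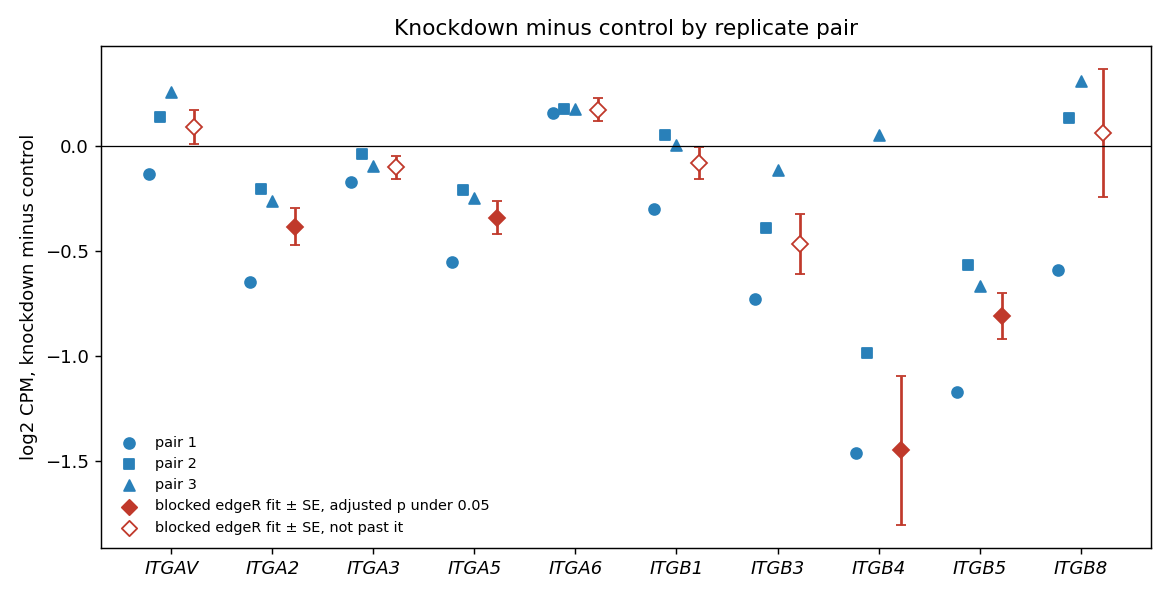
Difference in log2(CPM + 0.5), knockdown minus control, for each integrin subunit in replicate pairs 1 to 3 (blue) and the log2 fold change of the blocked edgeR fit with its SE (red, filled where the adjusted p was under 0.05). ITGB5 lies between -1.17 and -0.57 in the 3 pairs, and pair 1 is the lowest pair for all 10 members, by little for ITGA6, whose 3 pairs lie between 0.16 and 0.18.

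Counted together, 4 of the 10 members fell in edgeR's blocked fit, against 8.01% of all tested genes that fell, 5.48% that rose and 13.5% called in either direction. ITGB4, among these 4 members, had few counts outside the libraries numbered 1. No member rose in edgeR's blocked fit, where ITGA6 alone was higher at an unadjusted p under 0.05. The blocked DESeq2 and limma-voom fits likewise called 0 members higher. Their median log2 fold change was -0.22, and the median of all tested genes was 0.0001. Lower levels in all 3 pairs were found for 5 members (ITGA2, ITGA3, ITGA5, ITGB3 and ITGB5), against 26.9% of all genes, and higher levels in all 3 pairs for 1, against 25.8%. Without the block edgeR called 0% of all genes and 0 of the 10 members, with 1 member (ITGB5) at an unadjusted p under 0.05. Unblocked DESeq2 and limma-voom fits called 0 members too. In replicates 2 and 3 alone 5 members passed, ITGA2, ITGA5 and ITGB5 lower and ITGA6 and ITGAV higher, against 25.3% of all genes. These counts describe a list chosen with results known and were not tested as a list.

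Most members also differed between replicate 1 and the other replicates. In edgeR's fit with group and replicate 1 as terms, 6 members were higher in replicate 1 (31.6% of all genes were) and 2 were lower (30.2%). ITGB4 stood highest, with a log2 fold change of 4.21 ± 0.322 (SE) for replicate 1 over replicates 2 and 3, and ITGB3 (1.65), ITGA2 (1.65), ITGA5 (1.30), ITGB5 (0.74) and ITGA3 (0.39) were also higher there. ITGB8 (-2.58) and ITGA6 (-0.90) were lower in replicate 1. The adjusted p of these 8 ran from 5.32e-09 to 0.000241. ITGB1 (0.15, adjusted p = 0.067) and ITGAV (0.09, adjusted p = 0.303) did not pass. The 4 members called lower in the knockdown were thus all among the 6 that lay higher in replicate 1. How many of all genes called lower also lay higher in replicate 1 was not counted. This count of members therefore has no background to be read against. The part that the replicate difference has in the knockdown calls was not tested beyond the fits without replicate 1, in which ITGB5, ITGA2 and ITGA5 were also called.

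**Figure D4:**
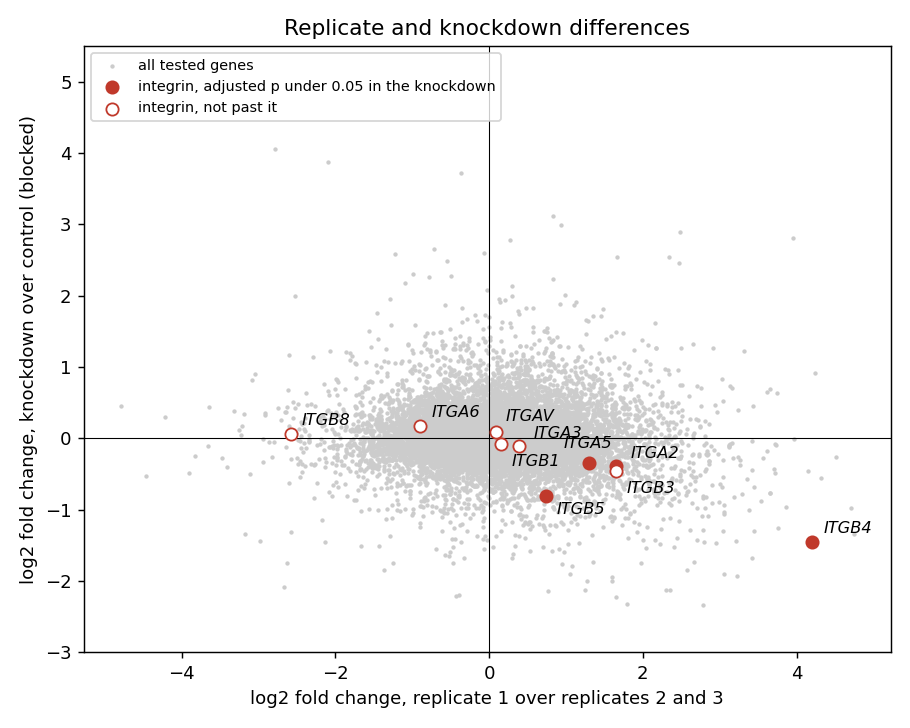
Log2 fold change of the knockdown over control (blocked edgeR fit) against that of replicate 1 over replicates 2 and 3, for all 14844 tested genes (grey) and the 10 integrin subunits (red, filled where the adjusted p of the knockdown was under 0.05). The called members lie right of 0 and below 0, with ITGB4 farthest right at 4.21.

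The knockdown difference of several members was not the same in pair 1 as in pairs 2 and 3. In edgeR's test of pair 1 against pairs 2 and 3, 5 members passed, against 13% of all genes. Pair 1 minus pairs 2 and 3 was -0.55 ± 0.0849 (SE) for ITGB5, -0.41 ± 0.0848 (SE) for ITGA2 and -0.33 ± 0.0717 (SE) for ITGA5, with adjusted p of 3.76e-07, 0.000204 and 0.000489. ITGB1 and ITGAV passed as well, each at -0.33 (adjusted p of 1.89e-06 and 0.00385). For ITGB1 and ITGAV the sign turned, with the knockdown lower in pair 1 and higher in pairs 2 and 3. For ITGB5 the knockdown was lower on both sides of this split, at -1.17 in pair 1 and at -0.57 and -0.67 in pairs 2 and 3 on the log2(CPM + 0.5) scale. These p-values rest on the spread between replicates 2 and 3, with 2 residual degrees of freedom. NELFCD itself had a larger fall in pair 1 (-0.52 ± 0.131 SE, adjusted p = 0.00291).

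Of the other 16 integrin subunits, 7 were tested and 1 passed in the blocked fit, a share near the 13.5% of all tested genes called in it. That was ITGB2, the beta chain of leukocyte integrins, with 4.24, 1.09 and 1.23 CPM in the knockdown, against 10.9, 3.04 and 2.62 CPM in the control (log2 fold change -1.32, adjusted p = 0.00746). Its groups overlapped, with knockdown replicate 1 above control replicates 2 and 3. The leukocyte marker CD3E was at 0 in all 6 libraries, and the 5 leukocyte markers summed to 0.265 to 0.821 CPM in the knockdown and 0.547 to 0.989 CPM in the control. ITGA1, a collagen receptor chain and the most abundant of these that did not pass, averaged 14.9 ± 2.43 CPM in the knockdown and 14.1 ± 1.80 CPM in the control (SD, n = 3 each). ITGB6, the other common partner of ITGAV, was at 0 to 0.265 CPM in the knockdown and 0.0707 to 0.478 CPM in the control and was not tested.

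Among 37 integrin ligands, 29 were tested, 6 fell and 4 rose in the blocked fit, in which 8.01% of all tested genes fell and 5.48% rose. The collagen VI chain COL6A1 averaged 30.8 ± 20.5 CPM in the knockdown and 149 ± 113 CPM in the control (SD, n = 3 each, log2 fold change -2.22, edgeR adjusted p = 3.43e-06). The latent TGF-beta binding protein LTBP1, which averaged 1.35 ± 0.476 CPM in the knockdown and 5.72 ± 3.81 CPM in the control (SD, n = 3 each, edgeR adjusted p = 0.00357), and the collagen V chain COL5A1 (-1.93, adjusted p = 0.0374) also fell. COL5A1 had 7.75, 0.181 and 0.205 CPM in the knockdown, against 16.9, 3.18 and 2.68 CPM in the control. The 4 that rose, named after their values were seen, were the laminin chains LAMA4 (1.44) and LAMB1 (0.26), the matrix protein TNC (0.92) and the cytokine gene TGFB1 (0.26), with edgeR adjusted p of 0.0221, 0.0217, 0.00276 and 0.0242. LAMB3, a chain of the laminin that the ITGA3 and ITGA6 receptors bind, averaged 1304 ± 738 CPM in the knockdown and 1489 ± 1255 CPM in the control (SD, n = 3 each) and did not pass (-0.02, adjusted p = 0.949). Of 7 hemidesmosome partners 1 fell and 1 rose. The one that rose was the tetraspanin CD151, which binds laminin receptors (0.31, edgeR adjusted p = 0.0108). The cytolinker PLEC, which binds ITGB4, did not pass (-0.23, adjusted p = 0.134). CD151 had 279.7, 268 and 269.7 CPM in the knockdown, against 218, 222 and 219.7 CPM in the control, and its groups did not overlap.

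Inside the cell, 7 of 36 adhesion adaptors and kinases fell and 3 rose, read against the same 8.01% and 5.48% of all genes, as are the counts that follow. The kinase SRC averaged 87.6 ± 3.25 CPM in the knockdown and 127 ± 12.5 CPM in the control (SD, n = 3 each, log2 fold change -0.53, edgeR adjusted p = 0.00375). The scaffold NEDD9 (-1.48, adjusted p = 0.0466) and LIMS2, which binds integrin-linked kinase (-0.58, adjusted p = 0.0253), fell too, while the actin crosslinker ACTN4 did not pass (-0.12, adjusted p = 0.183). NEDD9 was low, at 0.861, 0.605 and 1.23 CPM in the knockdown, against 4.92, 1.48 and 1.75 CPM in the control. The 3 that rose, also named after their values were seen, were the parvin PARVB (0.29), the Ras suppressor RSU1 (0.24) and the actin regulator VASP (0.28), with edgeR adjusted p of 0.0263, 0.0371 and 0.0164. Of 11 activation regulators 9 were tested and 1 passed, filamin A (FLNA), which competes with talin for beta tails, and it rose (0.30, adjusted p = 0.0136). The small GTPase RAP1B, an activator of integrins, did not pass (-0.11, adjusted p = 0.361). Of 14 membrane partners 6 fell and 2 rose, with the tetraspanin CD82 (-1.73, adjusted p = 0.0231), the syndecan SDC1 (-0.87, adjusted p = 0.000589) and the caveolin CAV1 (-0.56, adjusted p = 0.0162) lowest, and CD151 (0.31, adjusted p = 0.0108) and the immunoglobulin-family protein BSG (0.29, adjusted p = 0.0138) higher. CD82 was near the lower limit, at 1.26, 0.363 and 0.274 CPM in the knockdown, against 5.74, 0.707 and 0.687 CPM in the control. The transporter subunit SLC3A2, which binds beta tails, did not pass (0.06, adjusted p = 0.53). Of 14 trafficking genes 13 were tested and 2 passed, the recycling GTPase RAB11A (-0.24, adjusted p = 0.0378) and its effector RAB11FIP1 (-0.83, adjusted p = 0.00916), both lower, a share near the 13.5% of all genes called, while the clathrin heavy chain CLTC did not pass (-0.09, adjusted p = 0.315). List medians of the log2 fold change were 0.012 for ligands, -0.09 for adaptors and kinases, 0.066 for activation regulators, -0.067 for hemidesmosome partners, -0.216 for membrane partners, -0.086 for trafficking genes and 0.079 for the other integrins.

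**Figure D5:**
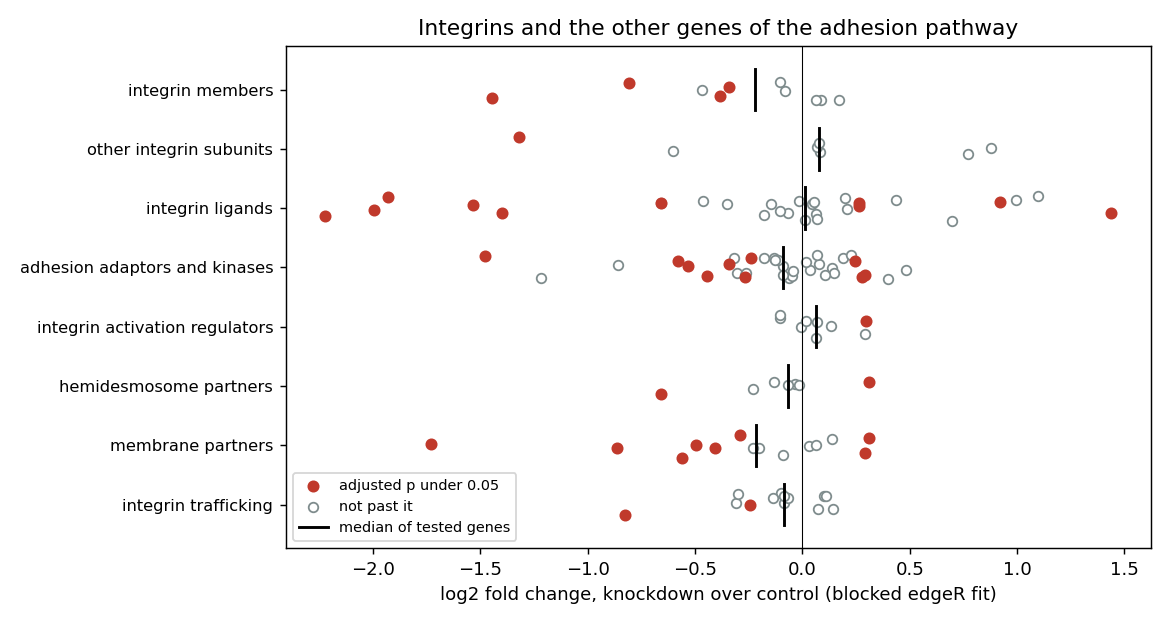
Log2 fold change of the knockdown over control in the blocked edgeR fit for each tested gene of the integrin members and of 7 lists of related genes, filled red where the adjusted p was under 0.05, with the list median as a black line. The members' median lies at -0.22, and called genes lie on both sides of 0 in the ligand, adaptor, hemidesmosome and membrane partner lists.

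The genes whose pattern over the 6 libraries was most like a member's were sought among 9086 protein-coding genes with a mean of at least 10 CPM. For ITGB4, the member with the largest called fall, these were TMEM65, TRAPPC12 and AMOTL1 (Pearson r of log2(CPM + 0.5) 0.998, 0.997 and 0.997). AMOTL1 had 110.3, 72.2 and 73.2 CPM in the knockdown, against 142, 82.8 and 77.0 CPM in the control, a spread led by replicate 1 as in ITGB4. For ITGB5, added after its values were seen, they were the membrane protease ADAM19, the nuclear receptor PPARD and the deubiquitinase YOD1 (r of 0.999, 0.998 and 0.996). ADAM19 had 187, 146 and 141 CPM in the knockdown, against 380, 205 and 212 CPM in the control. Each gene was picked for its likeness to the member, so a shared spread or separation follows from that choice. The 6 points share libraries and the replicate split, and the correlations are a description over 6 libraries.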

How the data were processed

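RNA-seq was compared between 3 NELFCD knockdown and 3 control libraries of Mum-2b. RNA was extracted with either of 2 kits, with no record of which library used which, and libraries came from a SMARTER kit, per the labels' protocols. The deposited table holds raw counts per gene, per the file headers. The submitters' processing notes name hg38 as the build. The aligner, counter and strand setting are not given in the sources used here. Reads of opposite-strand genes that overlap ITGAV, ITGA5, ITGA6, ITGB1 and ITGB8 thus cannot be told apart (at most 5.37% of exon length). The authors' deposited FPKM equalled counts divided by gene length and 1 constant per library (0.9816 to 1.073 times the total counts). Coordinates of 58724 of 58735 genes matched GENCODE 29.

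Counts were filtered with filterByExpr, scaled by TMM (factors 0.9894 to 1.034) and tested with edgeR 4.0.16 in R 4.3.3 (quasi-likelihood, robust), with Benjamini-Hochberg adjustment over 14844 genes and a threshold of 0.05. CPM used TMM-scaled totals. The first fit had no replicate term and the second had the replicate number as a block. Same-numbered libraries deviated together (correlations of 0.864, 0.697 and 0.685 across genes). Differently numbered libraries were not compared in this way, and replicate 1 of both groups stood apart from the other replicates. The correlations thus cannot show whether each number pairs its libraries, and the labels do not say so. A pair here means only the libraries of equal number. Gene values are from the blocked fit unless stated, since it changed the calls. edgeR's common biological variation coefficient was 32.6% without and 8.17% with the block. Alternatives used DESeq2 1.42.0 and limma 3.58.1. Poisson intervals cover counting error only. The script was tested on simulated data. Members, lists and the rule for named genes (all members, and per list the 3 largest passing changes at 1 CPM or more and the most abundant gene that did not pass) were chosen with earlier results of these data known. Some genes of the lists are not reported here by name.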

Additional observations from a re-analysis of the deposited data

Results flagged for a closer look

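The knockdown difference of 5 members depended on the replicate, by edgeR's test of the interaction between group and replicate 1. On the log2 scale, pair 1 minus pairs 2 and 3 was -0.5538 for ITGB5, -0.4075 for ITGA2, -0.3304 for ITGAV, -0.3293 for ITGB1 and -0.3251 for ITGA5. The direction of the knockdown difference was the same in all 3 pairs for ITGB5, ITGA2 and ITGA5. For ITGAV and ITGB1 pair 1 was lower in the knockdown, while pairs 2 and 3 were higher (ITGAV 0.136 and 0.259, ITGB1 0.052 and 0.003).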

How the results depend on the processing

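Without a replicate term, 0 members and 0 genes were called under each edgeR and limma setting run, including each library left out (range 0 to 0), and DESeq2 called 161 genes. With the replicate block edgeR called 2002 genes and 4 members, all lower. The blocked counts of genes and of members lower were 2040 and 4 with DESeq2 size factors, 2184 and 4 with upper-quartile factors, 2888 and 5 with no filter, 1358 and 3 in DESeq2, 2110 and 5 in limma-voom, and 575 and 1 on log2(FPKM + 1). Replicate 1 as a batch term gave 3117 genes, 5 members lower and 1 higher, and replicates 2 and 3 alone gave 3758 genes, 3 lower and 2 higher. Upper-quartile factors with the block gave 1 member higher (ITGA6) and moved the median of all genes to 0.0477, and rises made up 54.9% of the calls, against 40.6% with TMM. Blocked fits without 1 pair called 932 to 4090 genes, 2 to 5 members lower and 0 to 2 higher. The lowest of these, 932 genes with ITGB5 and ITGA2 as the 2 members, came without pair 2, and 1760 genes were called without pair 3. The cause of these differences was not tested.

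Signs turned for some members. ITGB1 was at 0.027 in replicates 2 and 3 alone, and ITGB8 at -0.195 in limma-voom without the block and -0.050 in DESeq2 with it. With 1 library or pair left out, log2 fold changes ran from -0.003 to 0.198 for ITGAV, -1.141 to 0.41 for ITGA2, -0.235 to 0.052 for ITGA3, -0.894 to 0.25 for ITGA5, -0.068 to 0.414 for ITGA6, -0.151 to 0.026 (no block -0.146 to 0.021) for ITGB1, -1.179 to 0.361 for ITGB3, -4.027 to 1.37 for ITGB4 and -0.266 to 0.667 (blocked -0.194 to 0.257, with -0.038 without pair 2) for ITGB8. For ITGA2, ITGA3, ITGA5, ITGA6, ITGB1, ITGB3, ITGB4 and ITGB8 the sign turned in the unblocked fit without control replicate 1. In blocked fits without 1 pair, ITGA2 ran from -0.466 to -0.238, ITGA5 from -0.406 to -0.23 and ITGB4 (2 fits) from -1.673 to -1.336. ITGA3, ITGA6 and ITGB3 also kept their sign there, and ITGAV, ITGB1 and ITGB8 did not. ITGB5 kept its sign throughout, from -1.057 to -0.459. The interaction with replicate 1 called 5 members in each of 4 alternatives added after the data were seen. Depth limits ITGB4 and ITGB8, which had as few as 3 and 5 counts in a library.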
